A study of Mus musculus with 6 samples.

Results

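Heat shock proteins of the cytosol were examined through 10 genes chosen by name, out of 17441 genes with a value in any of the 6 libraries. The members were *Hspa8*, *Hspa1a*, *Hspa1b*, *Hsph1*, *Dnajb1*, *Hsp90ab1*, *Hsp90aa1*, *Hspb6*, *Hspb1* and *Hsf1*, of which *Hsf1* encodes a transcription factor and the others encode chaperones. RNA came from mouse heart tissue below the ligature, 3 days after surgery, in 12-week-old males, with 2 libraries per group. WT Sham mice had the surgery without ligation, WT MI mice had the left anterior descending artery tied off, and *Card9* KO MI mice lacked *Card9*, by their label, and had the same ligation. The knockout strain was on a C57BL/6 background, and the study's controls were WT littermates and C57BL/6 mice. *Card9* KO mice with a sham operation were not analysed here. The labels number the libraries of a group and do not say how many mice each holds, so p-values measure only the spread between these samples.

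Expression was given as FPKM, fragments per kilobase of gene and 10⁶ mapped fragments, which allows levels of different genes to be compared per length. Genes above 0 numbered 14985 and 14935 (WT Sham), 15572 and 15627 (WT MI), 15852 and 15717 (*Card9* KO MI). Depth in 10⁶ fragments, estimated from how low values are spaced, was about 3.16 and 3.02 (WT Sham), 4.01 and 3.92 (WT MI), 4.31 and 4.14 (*Card9* KO MI). *Card9*, the adapter of innate immune signaling that the knockout targets, was at 0.990 and 1.03 FPKM in WT Sham and at 3.39 and 5.08 in WT MI. Its values were 9.85 and 6.94 where the label says *Card9* KO MI, above both WT MI libraries. The knockout therefore does not show in the *Card9* level, and every direction against WT MI below rests on the label of these libraries, written below as *Card9* KO MI or as the libraries labelled so. These libraries did differ from WT MI in *Lcn2*, which encodes lipocalin 2, a secreted protein of myeloid cells. It was at 1.90 and 3.17 FPKM in WT Sham, at 269 and 204 in WT MI and at 6.98 and 7.27 under the *Card9* KO MI label, a log2 fold change of -4.86 against WT MI (limma Benjamini-Hochberg adjusted p = 2.0e-04), lower in both libraries.

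Cytosolic heat shock proteins keep other proteins from misfolding and clumping. HSP70 chaperones bind exposed hydrophobic stretches in cycles driven by ATP, J-domain proteins start each cycle, and nucleotide exchange factors such as HSP110 end it. HSP90 chaperones finish the folding of kinases and steroid receptors. Small heat shock proteins hold unfolding proteins without ATP and are very abundant in striated muscle, where the sarcomere is under constant load. HSF1 trimers bind arrays of the unit GAA, in alternating orientation, upstream of the inducible genes and raise their transcription after heat or other protein damage.

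The members covered a wide range of levels in WT Sham hearts. *Hspb6*, a small heat shock protein of heart and smooth muscle, was highest at 1716 ± 111 FPKM (SD, n = 2), rank 26 among the 17390 genes with a symbol. *Hspa8*, the constitutive HSP70, followed at 1075 ± 82.3 FPKM, and *Hsp90ab1*, the constitutive HSP90, at 701 ± 5.41 FPKM. *Hspb1* was at 362 ± 37.0 FPKM and *Hsp90aa1*, the inducible HSP90, at 110 ± 14.2 FPKM. *Hsph1*, an HSP110, was at 36.0 ± 1.86 FPKM and *Hsf1* at 27.9 ± 1.06 FPKM. The inducible HSP70 genes *Hspa1a* and *Hspa1b* and the J-domain gene *Dnajb1* were lowest, at 8.67 ± 4.71, 7.65 ± 2.21 and 6.51 ± 0.389 FPKM, and did not differ from each other beyond their spread. In WT MI the order of *Hspb6* and *Hspa8* was within the spread, at 1055 ± 13.6 and 1091 ± 41.1 FPKM. *Hspa8*, *Hsp90ab1* and *Hspb6* together made up 86.2% (WT Sham) of the members' summed FPKM, 77.1% (WT MI) or 80.2% (*Card9* KO MI), as means of 2 libraries.

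**Figure D1:**
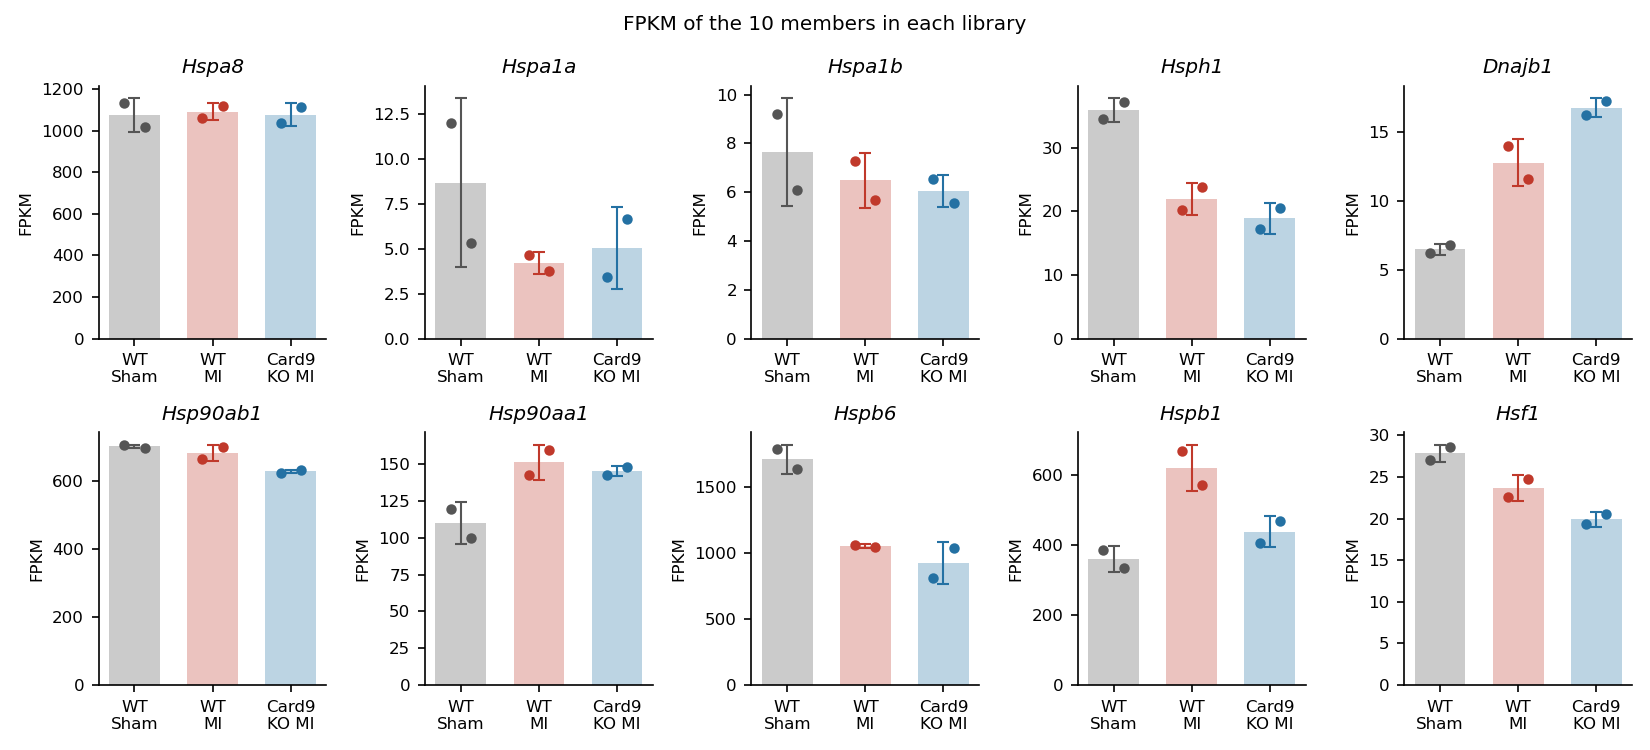
FPKM of each member on its own linear axis from 0, with bars for the mean of 2 libraries, whiskers for the SD and points for single libraries, coloured by group (WT Sham, WT MI, *Card9* KO MI). *Dnajb1* lay at 6.23 and 6.78 FPKM in WT Sham and between 11.6 and 17.3 in the 4 MI libraries, while *Hspb6* fell from 1794 and 1638 to between 812 and 1065.

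The members differ in how well short reads can be assigned to them, which limits what their FPKM values measure. *Hspa1a* (NCBI gene 193740, chr17:35106144-35109069 in mm9, minus strand) and *Hspa1b* (gene 15511, chr17:35093381-35096183, minus strand) are copies with 1 exon each that lie next to each other. Of the 50-base stretches of the *Hspa1b* transcript, 62.1% also occurred in the *Hspa1a* transcript, so the split of reads between the pair is uncertain and their sum is given too. For *Hspa8* (gene 15481, chr9:40609067-40613283, plus strand) 75.7% of the 50-base stretches of the longest coding transcript occurred elsewhere in the mm9 genome, for *Hsp90aa1* (gene 15519, chr12:111928815-111940938, minus strand) 73.1%, and for *Hspb1* (gene 15507, chr5:136363789-136365433, plus strand) 63.0%. The share was 8.30% for *Hsp90ab1* (gene 15516, chr17:45704724-45710220, minus strand) and 0.768% for *Dnajb1* (gene 81489, chr8:86132074-86135801, plus strand). No such stretch was found for *Hsph1* (gene 15505, chr5:150416862-150438951, minus strand), *Hspb6* (gene 243912, chr7:31337197-31340462, plus strand) or *Hsf1* (gene 15499, chr15:76307865-76331402, plus strand). *Hspb6* overlaps *Lin37* and BC053749 on the other strand, and *Hspa1a* overlaps Gm20481. *Hspa8* overlaps the small nucleolar RNA genes Snord14c, Snord14d and Snord14e on its own strand. Whether the counting used strand is not given in the sources used here. The length of 50 bases was chosen here, and how reads with several matches were counted is not given in those sources.

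Promoters are shown for 4 members because the inducible genes share a regulator, HSF1, yet did not move together in these hearts. The sequences are those of RefSeq (GRCm38.p6 table), from 250 bases before the annotated start, and each was placed in mm9 by an exact match. Of the 10 members 6 matched, with 9 promoters in all, and *Hspa8*, *Hsp90aa1*, *Hsp90ab1* and *Hsf1* did not. The motifs searched were GAANNTTC and TTCNNGAA, each the same on both strands, and a match to each can share a GAA or TTC unit. Among all 32851 promoters of this length 7.86% held GAANNTTC, 8.52% held TTCNNGAA and 15.1% held either. Matches are in capitals, written 5′ to 3′ on the strand of the gene.
Hspa1b, chr17:35096134-35096433, minus strand: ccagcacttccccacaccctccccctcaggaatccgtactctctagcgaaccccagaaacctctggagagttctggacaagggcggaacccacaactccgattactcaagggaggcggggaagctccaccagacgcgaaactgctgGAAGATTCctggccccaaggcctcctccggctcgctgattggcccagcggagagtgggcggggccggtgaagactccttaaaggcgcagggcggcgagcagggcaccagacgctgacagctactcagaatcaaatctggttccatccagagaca
Hsph1, chr5:150438862-150439161, minus strand: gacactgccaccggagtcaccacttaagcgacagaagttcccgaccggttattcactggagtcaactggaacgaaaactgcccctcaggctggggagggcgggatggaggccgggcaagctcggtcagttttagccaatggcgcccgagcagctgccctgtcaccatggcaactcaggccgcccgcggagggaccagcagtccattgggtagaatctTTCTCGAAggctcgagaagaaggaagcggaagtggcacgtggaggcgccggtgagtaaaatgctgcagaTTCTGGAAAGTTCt
Hspb1, chr5:136363539-136363838, plus strand: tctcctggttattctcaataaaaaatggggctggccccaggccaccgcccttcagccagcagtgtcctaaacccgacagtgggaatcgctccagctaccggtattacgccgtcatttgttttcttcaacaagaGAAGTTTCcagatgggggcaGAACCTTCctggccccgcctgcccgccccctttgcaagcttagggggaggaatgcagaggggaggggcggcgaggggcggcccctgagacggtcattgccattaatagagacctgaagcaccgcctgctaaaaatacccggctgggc
Dnajb1, chr8:86131824-86132123, plus strand: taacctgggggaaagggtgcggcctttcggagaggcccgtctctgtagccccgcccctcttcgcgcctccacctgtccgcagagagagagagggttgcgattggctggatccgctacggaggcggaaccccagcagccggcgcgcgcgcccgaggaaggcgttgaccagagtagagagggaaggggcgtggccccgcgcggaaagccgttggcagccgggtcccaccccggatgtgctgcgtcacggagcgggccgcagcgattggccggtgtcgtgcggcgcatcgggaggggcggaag

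The *Hspa1b* window held 1 match, GAAGATTC, which began 104 bases before the start, and the *Hspa1a* window held the same 8 letters at the same distance, with 296 of 300 bases identical between the pair. *Hspb1* held GAAGTTTC and GAACCTTC, 117 and 97 bases before the start. *Hsph1* held TTCTCGAA 33 bases before the start and 2 matches after it that shared a unit, so that 3 units alternated in a row, an arrangement found in 0.603% of all promoters (198 of 32851). An upstream start of *Hspb6* had no match, and another, chr7:31338070-31338369, had GAAGTTTC 120 bases before it. Neither listed start of *Dnajb1* had a match, which says only that these letters are not in those windows. A match is a description of the sequence and not evidence that HSF1 was bound.

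WT MI was compared with WT Sham to see how the chaperones stood in infarcted tissue after 3 days. *Dnajb1*, *Hspb1* and *Hsp90aa1* were higher, *Hspb6* and *Hsph1* were lower, and *Hspa8* and *Hsp90ab1*, the constitutive HSP70 and HSP90, were close to their WT Sham level. In limma with Benjamini-Hochberg adjustment over all 13120 genes tested, 3 of the 10 members were called higher and 2 were called lower at an adjusted p below 0.05. Of every gene tested 27.7% were called higher and 9.39% lower, so the count of higher members is near the background. All 10 members passed the filter on low values. The median log2 fold change, on the log2(FPKM + 1) scale, was -0.12 over the members and 0.19 over all genes tested.

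*Dnajb1*, the J-domain protein that starts the HSP70 cycle, was at 6.23 and 6.78 FPKM in WT Sham and at 14.0 and 11.6 in WT MI. The groups did not overlap, and the mean was 1.96 times that of WT Sham. The log2 fold change was 0.87 (95% CI 0.55 to 1.20, limma Benjamini-Hochberg adjusted p = 0.0025). About 44.6 and 46.3 fragments lay behind the WT Sham values and 127 and 103 behind the WT MI values. *Hsph1*, which acts at the other end of the HSP70 cycle as an exchange factor, moved the opposite way, from 34.6 and 37.3 FPKM to 20.2 and 23.8. Both WT MI libraries were below both WT Sham libraries, with a log2 fold change of -0.69 (SE 0.13, limma Benjamini-Hochberg adjusted p = 0.0058). Within a library the ratio of *Dnajb1* to *Hsph1* was therefore 0.180 and 0.182 in WT Sham and 0.693 and 0.486 in WT MI.

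The core HSP70 genes did not pass the test. *Hspa8* was at 1133 and 1017 FPKM in WT Sham and at 1062 and 1120 in WT MI, with overlapping groups and a log2 fold change of 0.02 (95% CI -0.20 to 0.25), between -0.06 without WT Sham replicate 2 and 0.10 without WT Sham replicate 1. Under the other scalings it was -0.19, 0.23 and -0.13, and not called. *Hspa1a* was at 12.0 and 5.34 FPKM in WT Sham and at 4.65 and 3.77 in WT MI. The spread within WT Sham was wide, and the log2 fold change was -0.81 (95% CI -1.66 to 0.05, limma Benjamini-Hochberg adjusted p = 0.13). Without WT Sham replicate 2 it was -1.32 (limma Benjamini-Hochberg adjusted p = 0.028), and without WT Sham replicate 1, the library at 12.0 FPKM, it was -0.29. When a library of a compared group is left out, that group has 1 library and the p rests on the spread within the other groups, which holds for every such value here. *Hspa1b* was at 9.21 and 6.09 FPKM in WT Sham and at 7.27 and 5.69 in WT MI, and these groups overlapped. The sum of the pair was at 21.2 and 11.4 FPKM in WT Sham and at 11.9 and 9.46 in WT MI, a log2 fold change of -0.52 (95% CI -1.13 to 0.10, limma Benjamini-Hochberg adjusted p = 0.17). WT Sham replicate 2, at 11.4, lay between the WT MI libraries, so WT Sham replicate 1 carried most of the gap in the sum. The inducible pair reached between 0.844% and 1.87% of the *Hspa8* level in the 6 libraries.

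Of the HSP90 pair only the inducible gene was called. *Hsp90aa1* was at 120 and 100 FPKM in WT Sham and at 143 and 160 in WT MI, both above WT Sham, with a log2 fold change of 0.46 (95% CI 0.19 to 0.72, limma Benjamini-Hochberg adjusted p = 0.016). *Hsp90ab1* was at 705 and 697 FPKM in WT Sham and at 665 and 698 in WT MI, a log2 fold change of -0.04 (95% CI -0.23 to 0.15), with -0.01 without WT MI replicate 1 and -0.07 when replicate 2 was left out. The ratio of *Hsp90ab1* to *Hsp90aa1* was 5.86 and 6.95 in WT Sham and 4.66 and 4.37 in WT MI, without overlap. The call of *Hsp90aa1* was lost under each other scaling, with log2 fold changes of 0.24 to 0.33 (limma Benjamini-Hochberg adjusted p from 0.055 to 0.13), without WT Sham replicate 2 (0.33, limma adjusted p = 0.095), without WT MI replicate 2 (0.38, limma adjusted p = 0.1) and without the trend in eBayes (limma adjusted p = 0.051). Under upper-quartile scaling *Hsp90ab1* was called lower at -0.26, while under quantile normalization it was at 0.02 and not called.

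The small heat shock proteins moved in opposite directions. *Hspb6* was at 1794 and 1638 FPKM in WT Sham and at 1065 and 1046 in WT MI, a log2 fold change of -0.70 (SE 0.13, limma Benjamini-Hochberg adjusted p = 0.0044). Its 2 groups were well apart, though under quantile normalization the value was -0.46 and the call was lost (limma Benjamini-Hochberg adjusted p = 0.065). *Hspb1*, known as HSP25 in mice, which binds actin filaments and unfolding proteins, was at 388 and 335 FPKM in WT Sham and at 669 and 574 after infarction. The log2 fold change was 0.78 (95% CI 0.49 to 1.07, limma Benjamini-Hochberg adjusted p = 0.0024), and both WT MI libraries were above both WT Sham libraries. The ratio of *Hspb6* to *Hspb1* was 4.63 and 4.88 in WT Sham and 1.59 and 1.82 in WT MI.

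*Hsf1*, the regulator of the inducible genes, was at 27.1 and 28.6 FPKM in WT Sham and at 22.6 and 24.8 in WT MI. Both WT MI libraries were lower, with a log2 fold change of -0.23 (95% CI -0.48 to 0.03, limma Benjamini-Hochberg adjusted p = 0.14). It was called lower under the 3 other scalings, at -0.37 to -0.43. This transcript level says nothing of HSF1 activity, which is set after translation.

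The scaling matters for these values because FPKM is relative to the library. The 10 most abundant genes took 16.1% and 16.4% of all FPKM in WT Sham and 10.6% in each WT MI library, and the median log2 fold change of all genes was 0.19 as deposited, 0.00 with upper-quartile scaling, -0.09 with quantile normalization and 0.06 with scaling that left out the 100 most abundant genes. Relative to the median of all genes as deposited, *Dnajb1* stood at 0.68, *Hspb1* at 0.59, *Hsp90aa1* at 0.27, *Hspa8* at -0.17, *Hsp90ab1* at -0.23, *Hspa1b* at -0.38, *Hsf1* at -0.42, *Hsph1* at -0.88 and *Hspb6* at -0.89. *Hspa1a* stood lowest, with -0.81 to set against the median of 0.19. Members called higher and lower numbered 2 and 4 after upper-quartile scaling, 2 and 2 after quantile normalization, and 2 and 3 without the 100 most abundant genes. Over all 13120 genes tested the counts moved too, from 3637 higher and 1232 lower as deposited to 2603 and 2159, 2198 and 2447, and 2869 and 1830 in the same order. *Dnajb1* and *Hspb1* were called higher and *Hsph1* lower under all 4 scalings.

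**Figure D2:**
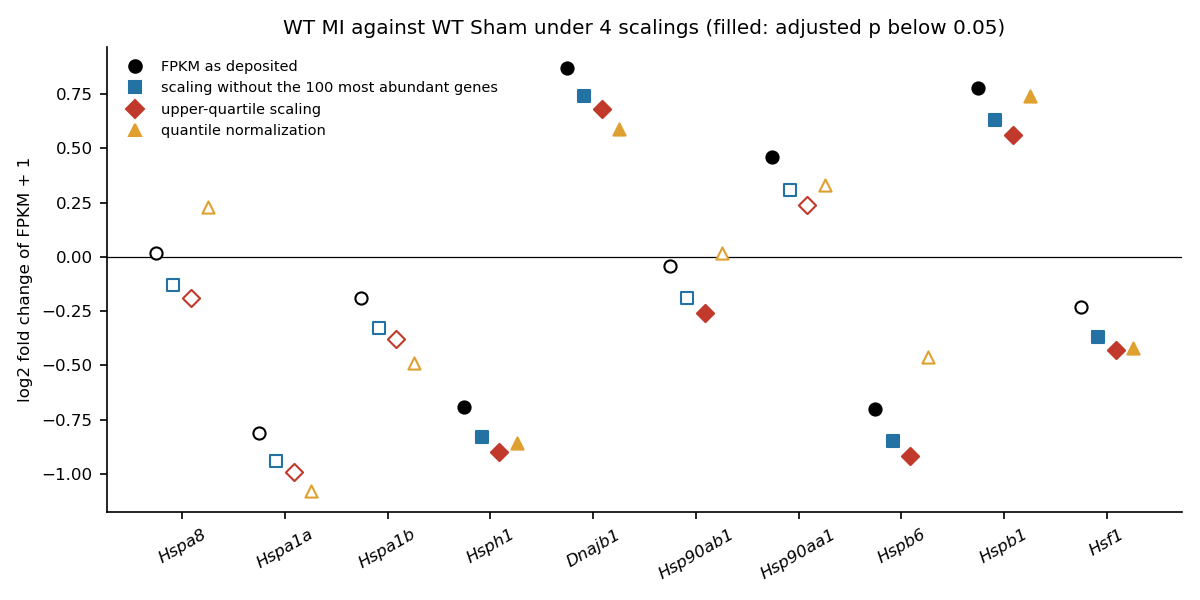
Log2 fold change of FPKM + 1, WT MI against WT Sham, for each member with FPKM as deposited and under 3 other scalings; filled symbols have a limma adjusted p below 0.05. *Dnajb1* (0.59 to 0.87), *Hspb1* (0.56 to 0.78) and *Hsph1* (-0.90 to -0.69) are filled throughout, *Hsp90aa1* only as deposited, and *Hspa8* and *Hsp90ab1* change sign.

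Other cells moved with the infarct, and in bulk tissue fewer cells of a type and less RNA per cell cannot be told apart. Of 10 cardiomyocyte markers 8 were called lower and 0 higher in WT MI. Their summed FPKM was 63439 and 64542 (WT Sham), 36259 and 37581 (WT MI) and 30136 and 34742 (*Card9* KO MI). The most abundant in WT Sham, *Mb*, the oxygen store of muscle, went from 14338 and 13966 to 5896 and 6635 in WT MI. *Hspb6* amounted to 2.83% and 2.54% of the summed cardiomyocyte markers (WT Sham), 2.94% and 2.78% (WT MI) and 2.70% and 2.99% (*Card9* KO MI), with overlap between all 3 groups. The part of cardiomyocyte content in the *Hspb6* value was not tested.

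Most markers of macrophages, neutrophils and fibroblasts were called higher in WT MI. All 11 macrophage markers were called higher, with sums of 423 and 362 FPKM (WT Sham), 1437 and 1838 (WT MI) and 2937 and 2133 (*Card9* KO MI), and *Lyz2* the most abundant in WT Sham at 152 and 124 FPKM. All 6 tested neutrophil markers of 7 were called higher (*Ly6g* was not listed), with sums of 7.64 and 5.40 FPKM, 212 and 92.9, and 59.8 and 46.7, and *Cxcr2* leading in WT Sham. Of 8 fibroblast markers 6 were called higher, with sums of 512 and 489 FPKM, 1479 and 2003, and 3188 and 3059, and *Dcn* leading in WT Sham. Of 6 smooth muscle and pericyte markers 4 were called higher and 1 lower, with sums of 193 and 219 FPKM, 277 and 261, and 520 and 500, and *Rgs5* leading in WT Sham, the marker called lower. The part of these cells in the values of *Dnajb1*, *Hspb1* and *Hsp90aa1* was not tested.

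The remaining marker lists moved less evenly. Of 7 endothelial markers 1 was called higher and 1 lower, with sums of 350 and 345 FPKM (WT Sham), 367 and 363 (WT MI) and 422 and 416 (*Card9* KO MI), and *Cdh5* leading in WT Sham. Of 6 erythroid markers 4 were tested and 3 called higher (*Hbb-b2* was not listed), with sums of 1053 and 479 FPKM, 1786 and 2921, and 1778 and 928, and *Hba-a1* leading in WT Sham. Lymphocyte markers were sparse, with 3 of 7 tested, 0 called in limma (0 at an unadjusted p below 0.05), sums between 4.24 and 6.30 FPKM, and *Cd3d* leading in WT Sham. Adipocyte markers were sparse too, with 2 of 6 tested, 0 called in limma (0 at an unadjusted p below 0.05), sums of 5.34 and 4.25 FPKM in WT Sham and of 0.990 and 10.3 under the *Card9* KO MI label, and a WT MI mean of 9.69 ± 8.94 in which replicate 2 had 3.36, *Cfd* leading in WT Sham and *Lep* not listed. Clock genes moved as well, with 6 of 10 in phase with *Dbp* called higher and 1 lower (median log2 fold change 0.74) and 3 of 5 in antiphase called lower and 0 higher (-0.59). The part of clock phase in the members' values was not tested.

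**Figure D3:**
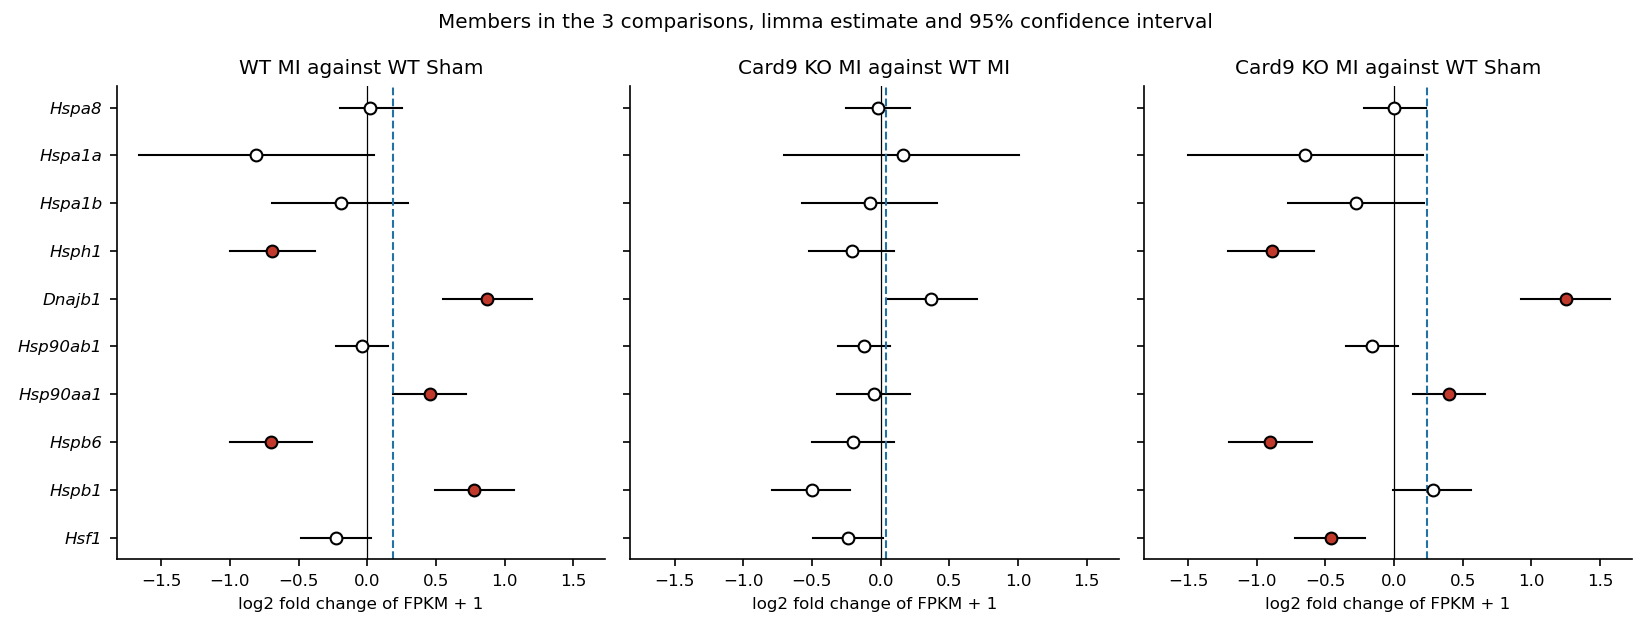
Log2 fold change of FPKM + 1 for each member in the 3 comparisons, with 95% confidence intervals from limma; filled points have an adjusted p below 0.05 and the dashed line is the median of all 13120 genes tested. *Dnajb1* at 0.87 and *Hsph1* at -0.69 lie on opposite sides of the median of 0.19 in WT MI against WT Sham, and no point is filled in *Card9* KO MI against WT MI.

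The wider chaperone machinery gives the setting of the members. The chaperone lists outside the members held 66 genes, among them *Hsf2*, *Hsf4* and *Hsbp1*. In WT MI against WT Sham 21 of the 66 were called higher and 11 lower, beside 27.7% and 9.39% of all genes tested. The median log2 fold change over the 66 was 0.23, beside 0.19 over all genes tested. The split depended on the scaling, with 12 higher and 20 lower under upper-quartile scaling, 15 and 19 under quantile normalization and 14 and 17 without the 100 most abundant genes, and the counts over all genes given above moved in the same direction. The count of calls was 14 when WT MI replicate 1 was left out and 19 when it was replicate 2.

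The TRiC/CCT chaperonin is the ring that folds actin and tubulin. With FPKM as deposited all 8 subunits were called higher, beside 27.7% of all genes tested, and their median was 0.58 (log2). Summed levels were 416 and 415 FPKM in WT Sham and 635 and 611 in WT MI. *Cct5* was at 63.6 and 61.5 FPKM in WT Sham and at 102 and 108 in WT MI (log2 fold change 0.74, limma Benjamini-Hochberg adjusted p = 0.0014), and *Cct6a* had the same log2 fold change of 0.74. *Tcp1*, the most abundant subunit in WT Sham, had 0.43, and its call was lost without WT MI replicate 1 (0.40, limma adjusted p = 0.057), under upper-quartile scaling (0.22) and under quantile normalization (0.24). Under the other scalings 5 or 6 of the 8 were called, all of them higher.

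Calls were mostly higher among heat shock proteins of the endoplasmic reticulum and only lower among those of mitochondria, beside 27.7% higher and 9.39% lower over all genes tested, and the difference between these lists was not tested. In the endoplasmic reticulum 5 of 6 were called higher and 0 lower (3 or 4 higher and 0 or 1 lower under the other scalings), with a median log2 fold change of 0.55. They included *Hyou1*, the HSP110 of that compartment, at 0.87, the J-domain gene *Dnajb11* at 0.76, and *Hspa5*, the HSP70 known as BiP, at 0.49, which lost its call without WT MI replicate 1 (0.42, limma adjusted p = 0.06) and under upper-quartile scaling (0.27). In mitochondria 0 of 6 were called higher and 3 lower (4 or 5 lower under the other scalings), with a median of -0.29. *Hspa9*, the mitochondrial HSP70, was at 317 and 314 FPKM in WT Sham and at 263 and 259 in WT MI, a log2 fold change of -0.28 (limma Benjamini-Hochberg adjusted p = 0.049). Its call was lost without any 1 of the 4 libraries compared (limma adjusted p from 0.15 to 0.19), and with 5 FPKM added, with no filter, without trend and with the replicate block (limma adjusted p from 0.051 to 0.13).

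Among the chaperone lists outside the members the largest called change in each direction was that of an HSP90 co-chaperone, *Fkbp4* or *Fkbp5*. Of 19 exchange factors and HSP90 co-chaperones 4 were called higher and 3 lower, beside 27.7% and 9.39% of all genes tested. The median of these 19 was 0.13. *Fkbp4* and *Fkbp5* encode a related pair of immunophilins that bind HSP90 in steroid receptor complexes, and they moved apart. *Fkbp4* was at 249 and 238 FPKM in WT Sham and at 92.5 and 123 in WT MI (log2 fold change -1.18, limma Benjamini-Hochberg adjusted p = 7.3e-04), while *Fkbp5* was at 5.09 and 4.97 and at 13.6 and 10.3 (1.09, limma Benjamini-Hochberg adjusted p = 0.0016). Both kept their call and direction under every scaling and without each library in turn. *Unc45b*, the myosin chaperone that works with HSP90 in striated muscle, had -0.48, and -0.47 without WT MI replicate 1 (limma adjusted p = 0.055). *Bag3*, the most abundant of the list in WT Sham, at 283 and 257 FPKM, had -0.41 (limma Benjamini-Hochberg adjusted p = 0.041), a call lost without any 1 of the 4 libraries (limma adjusted p from 0.078 to 0.17) and with no filter, without trend or with the replicate block (limma adjusted p from 0.058 to 0.096).

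The other cytosolic J-domain genes were split. Of 11 such genes 1 was called higher and 3 lower, with a median of 0.25, and under the other scalings 0 were called higher and 4 lower. *Dnajb5* was at 80.8 and 76.9 FPKM in WT Sham and at 35.2 and 41.2 in WT MI, a log2 fold change of -1.03 (limma Benjamini-Hochberg adjusted p = 0.0014). *Dnaja4* had -0.54, and its call was lost without WT Sham replicate 1 (-0.34), WT MI replicate 1 (-0.49) or WT MI replicate 2 (-0.59), with a limma adjusted p from 0.058 to 0.1. *Dnajb2* had -0.42, and its call was lost without WT Sham replicate 2 or either WT MI library, at values of -0.39 to -0.43 (limma adjusted p from 0.053 to 0.066). The most abundant in WT Sham, *Dnaja2*, had -0.28 (limma Benjamini-Hochberg adjusted p = 0.055). It was called under all 3 other scalings, without either *Card9* KO MI library, with only the 2 groups compared in the fit, and among genes with a mean FPKM of 5 or more.

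Among 8 other HSP70 and HSP110 genes 1 was called higher and 1 lower, with a median of 0.15. *Hspa13* was higher at 0.70, and its call was lost without WT Sham replicate 2 (0.61, limma adjusted p = 0.055), without WT MI replicate 1 (0.67, limma adjusted p = 0.066) and under quantile normalization (0.39). *Hspa12a* was lower at -0.70 (limma Benjamini-Hochberg adjusted p = 0.045), and its call was lost without any 1 of the 4 libraries (limma adjusted p from 0.056 to 0.2), with 0.1 FPKM added, with no filter and without trend (limma adjusted p from 0.052 to 0.093). *Hspa4*, the most abundant in WT Sham, had 0.29 (limma Benjamini-Hochberg adjusted p = 0.052, and 0.046 among genes with a mean FPKM of 5 or more). *Hspa4l*, a close relative of *Hsph1*, had -0.33 (-0.19 without WT Sham replicate 1) and was called lower only under the 3 other scalings.

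Among 5 other small heat shock proteins 2 were called higher and 1 lower, with a median of 0.33. *Cryab*, alpha B-crystallin, was at 2413 and 2100 FPKM in WT Sham and at 2966 and 2794 in WT MI, above *Hspb6* in every library. Its log2 fold change was 0.35 (limma Benjamini-Hochberg adjusted p = 0.038), a call lost without any 1 of the 4 libraries (limma adjusted p from 0.057 to 0.24), under upper-quartile scaling (0.14) and without the 100 most abundant genes (0.20). Under quantile normalization the value was 0.62 and the call was kept. It was lost with no filter on low values, without trend and with the replicate block (limma adjusted p = 0.12, 0.089 and 0.055). The ratio of *Hspb6* to *Cryab* was 0.744 and 0.780 in WT Sham and 0.359 and 0.374 in WT MI. *Hspb8*, which works with *Bag3* in the disposal of damaged filament proteins, had -0.38 (limma Benjamini-Hochberg adjusted p = 0.039), with the call lost without WT Sham replicate 1 or either WT MI library (limma adjusted p from 0.1 to 0.2), with no filter, without trend and with the replicate block (limma adjusted p from 0.059 to 0.097). Of the heat shock factors and the HSF1 partner *Hsbp1*, 0 of 4 were called in limma and 0 had an unadjusted p below 0.05. In WT MI against WT Sham *Hsf2* had 0.17, *Hsf4* -0.33 and *Hsbp1*, which binds HSF1 trimers, -0.15. *Hsf2* was at 0.07 without WT Sham replicate 1 and at 0.28 without replicate 2, and *Hsf4* at -0.17 without WT Sham replicate 2. *Hsbp1* was called lower under the 3 other scalings (-0.30 to -0.37, limma Benjamini-Hochberg adjusted p from 0.014 to 0.031).

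**Figure D4:**
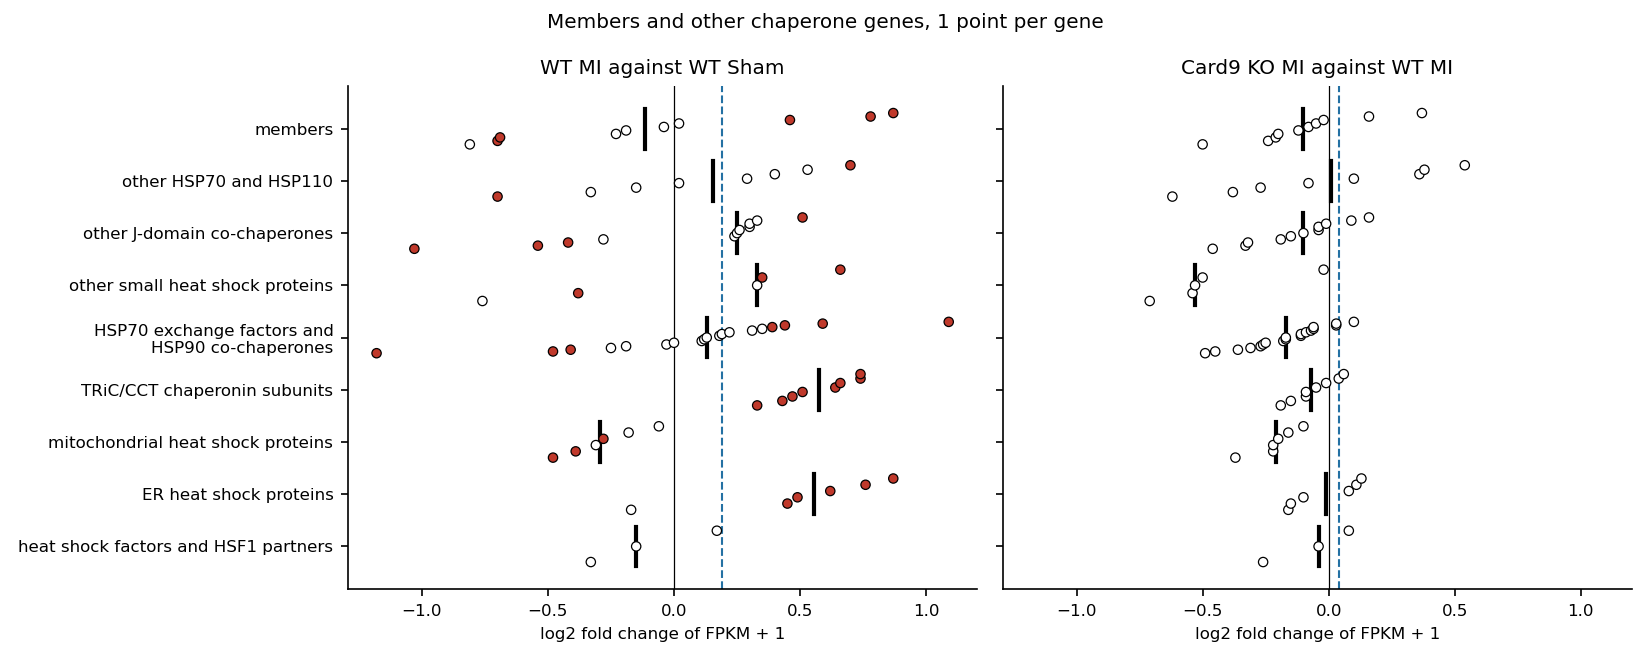
Log2 fold change of FPKM + 1 for the members and the 66 other genes by list, 1 point per gene, filled where the limma adjusted p was below 0.05; black bars are list medians and the dashed line is the median of all genes tested (0.19 and 0.04). All 8 chaperonin subunits are filled on the right in WT MI against WT Sham, and no gene is filled in *Card9* KO MI against WT MI.

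*Card9* KO MI was compared with WT MI to see whether the genotype on the label changed these levels in infarcted tissue. No member differed beyond the test, and the largest gaps were in *Hspb1*, lower under the *Card9* KO MI label, and *Dnajb1*, higher under it. In limma with Benjamini-Hochberg adjustment 0 of 10 members were called higher and 0 lower, beside 0.816% and 0.587% of all genes tested, and 2 members had an unadjusted p below 0.05, beside 2629 of all 13120 genes tested. The median log2 fold change was -0.10 over the members and 0.04 over all genes tested. A p that misses the threshold does not show that the groups were alike.

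*Hspb1* was at 669 and 574 FPKM in WT MI and at 407 and 470 under the *Card9* KO MI label. The groups did not overlap, and the libraries labelled *Card9* KO MI lay nearer to the WT Sham values of 388 and 335. The log2 fold change was -0.50 (95% CI -0.79 to -0.22, limma Benjamini-Hochberg adjusted p = 0.094). *Dnajb1* was at 14.0 and 11.6 FPKM in WT MI and at 16.3 and 17.3 in *Card9* KO MI, again without overlap, with a log2 fold change of 0.37 (95% CI 0.05 to 0.70, limma Benjamini-Hochberg adjusted p = 0.19). *Hsf1* was at 22.6 and 24.8 FPKM and at 19.3 and 20.5, a log2 fold change of -0.24 (95% CI -0.49 to 0.02). Neither *Hspb1* nor *Dnajb1* was called under any alternative tried.

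The other members lay closer together. *Hspa8* was at 1062 and 1120 FPKM in WT MI and at 1039 and 1115 in *Card9* KO MI, with a log2 fold change of -0.02 (95% CI -0.25 to 0.21). *Hsp90ab1* was at 665 and 698 FPKM and at 624 and 631, lower in both libraries, with -0.12 (95% CI -0.31 to 0.07), and *Hsp90aa1* overlapped between the groups at -0.05 (95% CI -0.32 to 0.21). *Hspb6* was at 1065 and 1046 FPKM and at 812 and 1038, so that 1 library labelled *Card9* KO MI carried most of the gap of -0.20 (95% CI -0.50 to 0.10), which was -0.02 without that library, replicate 1, and -0.38 without replicate 2. *Hsph1* was at 20.2 and 23.8 FPKM and at 17.2 and 20.6, with overlap and a log2 fold change of -0.21 (95% CI -0.52 to 0.10), which was -0.08 without *Card9* KO MI replicate 1 and -0.33 when replicate 2 was left out. *Hspa1a* and *Hspa1b* overlapped between the groups, with 0.16 (95% CI -0.70 to 1.01) and -0.08. *Hspa1a* was at 0.56 without *Card9* KO MI replicate 1 and at -0.24 without replicate 2, and *Hspa1b* at 0.07 without WT MI replicate 1 and at -0.23 without WT MI replicate 2. The values of *Hspa8* (-0.07 to 0.03) and *Hsp90aa1* (-0.13 to 0.03) also changed sign when a library of these groups was left out. For the sum of *Hspa1a* and *Hspa1b*, at 11.9 and 9.46 FPKM and at 9.92 and 12.2, the log2 fold change was 0.05 (95% CI -0.57 to 0.66).

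Of the 66 other genes of the chaperone lists 0 were called in limma and 16 had an unadjusted p below 0.05, beside the 2629 of 13120 genes given above, with a median log2 fold change of -0.11. The other small heat shock proteins lay lowest, with a median of -0.53 over 5 genes, 4 of them at an unadjusted p below 0.05. *Cryab* was at 2966 and 2794 FPKM in WT MI and at 1929 and 2140 in *Card9* KO MI (-0.50, limma Benjamini-Hochberg adjusted p = 0.073), and *Hspb8* at 350 and 374 and at 227 and 270 (-0.54, limma Benjamini-Hochberg adjusted p = 0.074). *Bag3* had -0.45 and *Hspa4l* -0.62, and neither was called (limma Benjamini-Hochberg adjusted p = 0.12 and 0.096). Without *Card9* KO MI replicate 1 *Bag3* was at -0.26. *Hspa9* had -0.37 and *Dnajb2* -0.46. Among genes with a mean FPKM of at least 5, 3 of these chaperones were called lower, among them *Cryab* and *Dnajb2* (limma Benjamini-Hochberg adjusted p = 0.047 and 0.046). With that filter 136 of all 8786 genes tested were called lower, beside 77 of 13120 with the filter used. The chaperonin, with a median of -0.07, and the chaperones of the endoplasmic reticulum, with -0.01, lay near the median of all genes, and the mitochondrial list had -0.21.

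Some cell-type markers and clock genes were also called between these groups. Of 8 fibroblast markers 3 were called higher in *Card9* KO MI, as were 2 of 6 smooth muscle and pericyte markers, while 0 of 11 macrophage, 0 of 6 tested neutrophil and 0 of 10 cardiomyocyte markers were called in limma (6, 2 and 4 at an unadjusted p below 0.05). Clock output genes in phase with *Dbp* had a median log2 fold change of -0.72, with 1 of 10 called lower and sums of 116 and 141 FPKM (WT Sham), 154 and 172 (WT MI) and 98.8 and 91.8 (*Card9* KO MI). *Nr1d1* was the most abundant of them in WT Sham. Clock genes in antiphase to *Dbp* had a median of 0.46, with 1 of 5 called higher and sums of 46.3 and 46.8, 27.0 and 28.4, and 42.8 and 48.1 FPKM. *Arntl*, the activator that starts the clock loop, was at 12.6 and 15.8 FPKM in WT Sham, where it was the most abundant of that list, at 4.13 and 3.03 in WT MI and at 12.7 and 11.9 under the *Card9* KO MI label. The hour of sampling is not given in the sources used here, and the part of clock phase or of cell content in the gaps of *Hspb1* and *Dnajb1* was not tested.

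Immediate early genes, which respond to acute stress and handling of tissue, were not called in this comparison (0 of 16 in limma, 6 at an unadjusted p below 0.05, median 0.24). Against WT Sham 4 of 16 were called higher and 5 lower in WT MI, with sums of 525 and 420 FPKM (WT Sham), 453 and 476 (WT MI) and 570 and 510 (*Card9* KO MI). *Dusp1*, a phosphatase and the most abundant of the list in WT Sham, was at 83.5 and 75.3 FPKM in WT Sham and at 44.6 and 60.0 in WT MI.

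*Card9* KO MI against WT Sham combines genotype and infarction, which cannot be told apart here, and shares its control libraries with the comparison of WT MI. *Dnajb1* and *Hsp90aa1* were higher and *Hspb6*, *Hsph1* and *Hsf1* lower. By limma with Benjamini-Hochberg adjustment 2 of 10 members were called higher, beside 34.8% of all genes tested, and 3 lower, beside 14.3%. The medians were -0.22 over the members and 0.24 over all genes tested. Under each other scaling 1 member was called higher and 4 lower. Over all genes tested the counts were 3230 higher and 2884 lower after upper-quartile scaling, 2755 and 3444 after quantile normalization, and 3642 and 2527 without the 100 most abundant genes, beside 4569 and 1875 as deposited.

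*Dnajb1* was at 16.3 and 17.3 FPKM, 2.58 times the WT Sham mean, with a log2 fold change of 1.25 (95% CI 0.92 to 1.57, limma Benjamini-Hochberg adjusted p = 2.8e-04). *Hsph1* was at 17.2 and 20.6 FPKM beside 34.6 and 37.3, with -0.89 (95% CI -1.21 to -0.58, limma Benjamini-Hochberg adjusted p = 0.0012), and *Hspb6* at 812 and 1038 FPKM beside 1794 and 1638, with -0.90 (95% CI -1.20 to -0.60, limma Benjamini-Hochberg adjusted p = 8.9e-04). Neither pair of groups overlapped. *Hsf1* was at 19.3 and 20.5 FPKM beside 27.1 and 28.6, with -0.46 (95% CI -0.72 to -0.21, limma Benjamini-Hochberg adjusted p = 0.0096), and with -0.42 without *Card9* KO MI replicate 1 (limma adjusted p = 0.053). The count of members called depended on that library, and so did the count over all genes tested.

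*Hsp90aa1* was at 143 and 148 FPKM beside 120 and 100, with 0.40 (95% CI 0.14 to 0.66, limma Benjamini-Hochberg adjusted p = 0.02). Its call was lost under the 3 other scalings (0.15 to 0.30, limma adjusted p from 0.056 to 0.3), without WT Sham replicate 2 (0.27, limma adjusted p = 0.12), without either *Card9* KO MI library (0.42 and 0.38, limma adjusted p = 0.054 and 0.064) and without the trend in eBayes (limma adjusted p = 0.059). *Hspb1*, at 407 and 470 FPKM beside 388 and 335, had 0.28 (95% CI -0.01 to 0.56, limma Benjamini-Hochberg adjusted p = 0.097). This value was 0.02 to 0.18 under the other scalings, and 0.17 without WT Sham replicate 2 or without *Card9* KO MI replicate 2. *Hspa8* overlapped between the groups at 0.00 (95% CI -0.22 to 0.23), with -0.25 to 0.13 under the other scalings and -0.07 to 0.08 without WT Sham replicate 2 or 1. *Hsp90ab1* was lower in both libraries at -0.16 (95% CI -0.35 to 0.03) and was called lower under upper-quartile scaling (-0.41) and without the 100 most abundant genes (-0.33). *Hspa1a*, at 3.40 and 6.63 FPKM, had -0.65 (95% CI -1.50 to 0.21), with -0.13 to -1.17 when a library was left out. The lowest of these, without WT Sham replicate 2, was called (limma adjusted p = 0.031), and the value nearest 0 was that without WT Sham replicate 1. *Hspa1b*, at 6.52 and 5.57 FPKM, had -0.28 and was called lower under quantile normalization alone (-0.65, limma adjusted p = 0.03). Without WT Sham replicate 1 it was -0.01 and without WT Sham replicate 2 -0.54. The sum of the pair had -0.47 (95% CI -1.08 to 0.15). This sum was at 11.4 FPKM in WT Sham replicate 2, between the 9.92 and 12.2 of the *Card9* KO MI libraries. WT Sham replicate 1, at 21.2, carried most of the gap.

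Of the 66 other genes of the chaperone lists 21 were called higher and 18 lower in this comparison, beside 34.8% and 14.3% of all genes tested. The median log2 fold change over the 66 was 0.00, beside 0.24 over all genes tested. Under upper-quartile scaling 10 of the 66 were called higher and 26 lower, under quantile normalization 11 and 24, and without the 100 most abundant genes 13 and 22. The counts over all genes given above moved in the same direction. *Fkbp4* had -1.35, *Dnajb5* -1.04, *Hspa4l* -0.95, *Hspb8* -0.93 and *Dnajb2* -0.88, each called lower. *Fkbp5* had 1.12, *Hspa2* 1.07, *Hspa13* 1.06, *Dnajb11* 0.84 and *Hyou1* 0.77, each called higher, though *Hspa2* was not called under quantile normalization (0.63, limma adjusted p = 0.051).

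**Figure D5:**
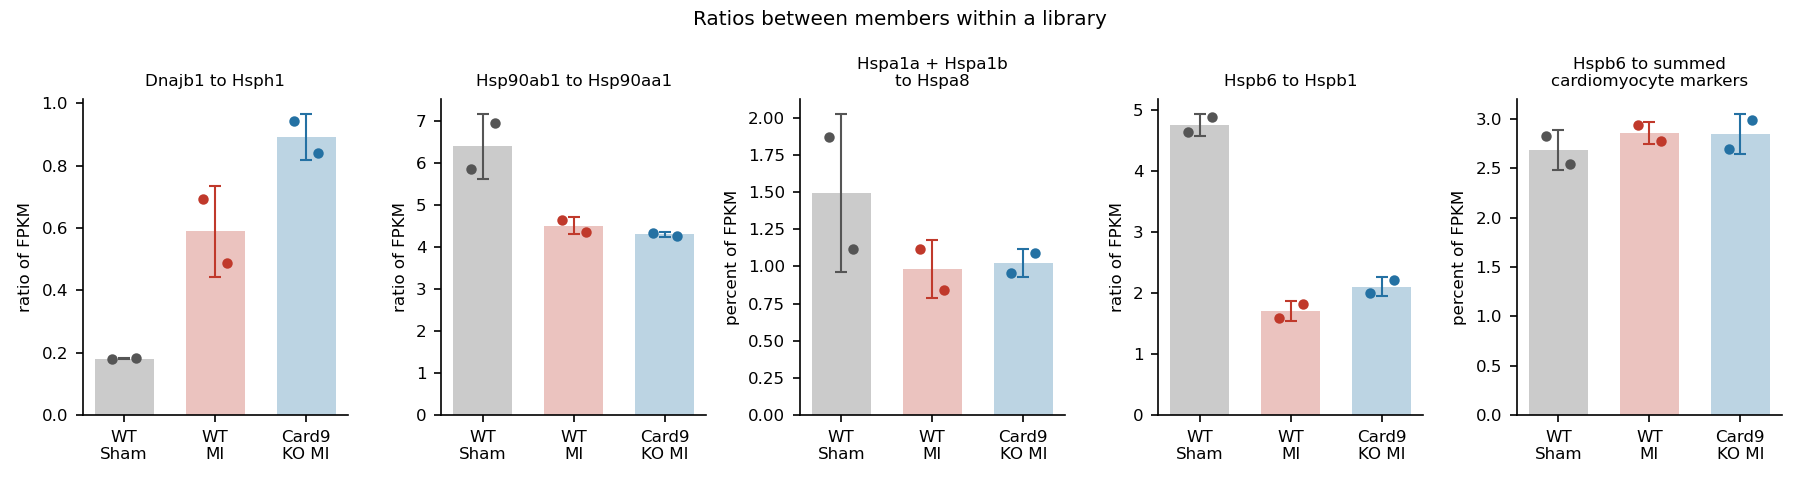
FPKM ratios or percentages formed within each library, with bars for the mean of 2 libraries, whiskers for the SD and points for single libraries, coloured by group (WT Sham, WT MI, *Card9* KO MI). *Dnajb1* to *Hsph1* was at 0.180 and 0.182 in WT Sham and between 0.486 and 0.944 in the MI libraries, while *Hspb6* stayed between 2.54% and 2.99% of the summed cardiomyocyte markers in all 6.

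Ratios within a library do not change when a library is scaled by 1 factor. The ratio of *Dnajb1* to *Hsph1* was 0.181 ± 0.00146 (WT Sham), 0.590 ± 0.146 (WT MI), 0.892 ± 0.0736 (*Card9* KO MI; SD, n = 2), and the 3 groups did not overlap. The ratio of *Hsp90ab1* to *Hsp90aa1* was 5.86 and 6.95, 4.66 and 4.37, and 4.35 and 4.27, with both MI groups below WT Sham and no overlap among them. *Hspb6* to *Hspb1* was 4.63 and 4.88, 1.59 and 1.82, and 2.00 and 2.21. The inducible HSP70 pair was at 1.87% and 1.12%, 1.12% and 0.844%, and 0.955% and 1.09% of *Hspa8*, with overlap between the MI groups and 1 WT Sham library next to the higher WT MI library. These ratios were not tested.

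The inducible members were also set against a shared profile over the 6 libraries. This profile, the mean log2(FPKM + 1) of *Hspa1a*, *Hspa1b*, *Hsph1*, *Dnajb1* and *Hsp90aa1* in each library, had a Pearson r with the single genes of 0.871 for *Hspa1a*, 0.612 for *Hspa1b*, 0.168 for *Hsph1*, -0.160 for *Dnajb1* and 0.045 for *Hsp90aa1*. The 5 genes outside all lists most like this profile, among 12926 searched, were 4930453N24Rik (r = 0.989), Rnu1a1 (0.983), Gm10785 (0.983), *Mad2l1bp* (0.983) and *Btbd3* (0.976). *Mad2l1bp*, for example, was at 14.9 and 8.54 FPKM (WT Sham), 11.8 and 9.58 (WT MI) and 9.66 and 13.5 (*Card9* KO MI). Each member is part of the mean it is set against, and *Hspa1a*, with its wide spread within WT Sham, weighs most in it. These values of r are descriptions over 6 libraries in 3 groups, the highest of many, with no p.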

How the data were processed

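RNA from heart tissue of 6 mouse samples in 3 groups was sequenced by the authors on an Illumina HiSeq instrument after mRNA enrichment. Per the labels and methods, reads were mapped to mm9 with BWA and Bowtie2, and the authors deposited FPKM values per NCBI gene number, to 2 decimals, for genes above 0. The annotation and the treatment of strand and of reads with several matches are not given in the sources used here. Genes missing from a library were set to 0. Symbols came from a GRCm38.p6 table, used for names (17390 of 17441 genes), and positions from GENCODE vM1 on mm9.

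Groups were compared with limma 3.58.1 in R 4.3.3 (lmFit, contrasts, eBayes with trend) on log2(FPKM + 1) for 13120 genes, those that reached 1 FPKM in 2 or more libraries. All 3 groups entered 1 fit without covariates, and p-values were adjusted by Benjamini-Hochberg over all genes tested. This fold change understates changes of low genes. Simulated data were used to test the fit and the depth estimate. Other steps used Python 3.11.15 with numpy 2.4.6, pandas 2.3.3, numba 0.67.0 and matplotlib 3.10.9. Depth per library was estimated from FPKM values of 1-transcript genes worth few fragments, of which 72.4% to 77.0% came out whole within 0.15 fragments, so read counts were not rebuilt.

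Members and lists were chosen with earlier results of these data known. The lists were other HSP70 and HSP110, other J-domain co-chaperones, other small heat shock proteins, HSP70 exchange factors and HSP90 co-chaperones, TRiC/CCT subunits, mitochondrial and ER heat shock proteins, heat shock factors, immediate early genes, clock genes in phase and in antiphase with *Dbp*, and markers of cardiomyocytes, macrophages, neutrophils, fibroblasts, endothelial cells, smooth muscle and pericytes, lymphocytes, erythroid cells and adipocytes. Named genes are all members, *Card9* and *Lcn2*, the 5 largest called changes in each direction per comparison among the chaperone lists, all heat shock factors, the most abundant gene of each list in WT Sham, and the 5 genes most like the mean profile of the inducible members. Alternatives were 0.1 or 5 FPKM added before log2, no filter on low values, a filter at a mean of 5 FPKM, 3 other scalings, only the 2 groups compared, no trend, a replicate block, *Hspa1a* and *Hspa1b* summed, and each library left out.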

Additional observations from a re-analysis of the deposited data

How the results depend on the processing

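With 2 libraries per group the count of calls depends on the settings, and the cause was not tested. Of 504 values of the members under the alternatives 464 kept their status, called or not, 15 lost a call, 9 gained one and 16 changed sign without a call. In *Card9* KO MI against WT MI the 184 genes called of all tested became 80 with 0.1 FPKM added, 312 with 5 FPKM added, 12 without the filter, 284 with a mean FPKM of at least 5, 101 with only the 2 groups, 58 without trend, 71 with a replicate block, and 9 to 147 with a library left out. Genes of the chaperone lists outside the members called there went from 0 to 1 with 5 FPKM added, 3 with a mean FPKM of at least 5, 1 under quantile normalization and 0 to 1 with a library left out. In WT MI against WT Sham leaving a library out gave 14 to 36 such genes and 2939 to 4749 genes of all. In *Card9* KO MI against WT Sham the counts of members and of all genes called also depended on the library left out.

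Signs also changed for results that were not called at the settings used. In WT MI against WT Sham *Hspa8* was at -0.19 with upper-quartile scaling, at 0.23 with quantile normalization, at -0.13 without the 100 most abundant genes and at -0.06 to 0.10 with a library left out, *Hsp90ab1* at 0.02 with quantile normalization, *Hsf2* at -0.01 with upper-quartile scaling and, after quantile normalization, -0.13, and *Hspa1b* at -0.46 to 0.07 with a library left out. In *Card9* KO MI against WT MI a library left out gave -0.24 to 0.56 for *Hspa1a*, -0.23 to 0.07 for *Hspa1b*, -0.07 to 0.03 for *Hspa8*, -0.13 to 0.03 for *Hsp90aa1*, -0.52 to 0.44 for *Hsf4*, -0.37 to 0.04 for *Fkbp4*, -0.21 to 0.18 for *Dnajb5*, -0.38 to 0.22 for *Hspa12a*, -0.02 to 0.18 for *Dnajb11*, -0.15 to 0.22 for *Fkbp5* and -0.04 to 0.02 for *Tcp1*. There *Hsf4* was at 0.00 with 5 FPKM added, *Fkbp5* at 0.00 with upper-quartile scaling and, after quantile normalization, -0.03, and *Tcp1* at 0.01 with quantile normalization. In *Card9* KO MI against WT Sham *Hspa8* was at -0.25 with upper-quartile scaling and -0.17 without the 100 most abundant genes, *Hspa4* at -0.23, -0.14 and -0.15 with upper-quartile scaling, quantile normalization and without the 100 most abundant genes, and *Cryab* at 0.26 with quantile normalization, while upper-quartile scaling called it lower at -0.40. A library left out gave -0.07 to 0.08 for *Hspa8*, -0.19 to 0.02 for *Hsf2*, -0.84 to 0.12 for *Hsf4* and -0.05 to 0.09 for *Hspa4*. *Hsf4* was called lower without *Card9* KO MI replicate 2 (-0.84) and *Hsf2* after quantile normalization (-0.48).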
